A study of Mus musculus with 24 samples.

Results

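Liver of Acads-/- mice on HF diet was compared with liver of Acads+/+ mice on the same diet. The comparison held 6 of the 24 arrays of the study, 3 from Acads-/- (BALB/cByJ) and 3 from Acads+/+ (BALB/cByKZ) livers, picked by what the labels give as tissue, diet and genotype. All mice were males, 12 weeks old, kept on chow and then moved to the HF diet for 2 days. The other 6 liver arrays came from Acads-/- and Acads+/+ mice given a low-fat (LF) diet for the same 2 days and entered the same statistical model. The study also profiled whole brain, with the same 4 groups. BALB/cByJ carries a spontaneous deletion in Acads in every cell, and BALB/cByKZ is a related substrain with an intact gene, so the Acads allele and any other difference between the substrains cannot be told apart. Each array is taken to be a separate mouse, as the series' design describes 3 mice per group.

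Acads encodes short-chain acyl-CoA dehydrogenase (SCAD), the mitochondrial enzyme that takes the first step in oxidation of acyl-CoAs with short carbon chains. In liver, fatty acids enter mitochondria through the carnitine shuttle and are shortened stepwise to acetyl-CoA, while peroxisomes and the omega-hydroxylases of the CYP4A family handle fatty acids that mitochondria do not. The nuclear receptor PPAR-alpha, which fatty acids activate, controls many of these genes, and SREBP2 controls those of cholesterol synthesis. The endoplasmic reticulum (ER) folds the proteins that liver secretes, and its chaperones are under the control of the unfolded protein response.

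Each group's arrays are given in order of their array number and are called the first, the second and the third of that group. Values are log2 of the quantile-normalized signal, raised to a floor of 7.15 where lower, and differences are Acads-/- minus Acads+/+ on that scale. No probe separated the genotypes on HF diet after correction for multiple testing. Of 16506 probes tested, 0 (0.00%) reached an adjusted p below 0.05 with a fold change of at least 1.6, and the lowest adjusted p was 0.348 (limma, Benjamini-Hochberg). At an unadjusted p below 0.05 with the same fold change there were 936 probes (5.67%), 541 higher (3.28%) and 395 lower (2.39%) in Acads-/- liver. The 3 arrays of each genotype did not overlap at 1834 probes (11.1%), 997 higher (6.04%) and 837 lower (5.07%) in Acads-/- liver. Every difference given here is therefore a difference between group means that did not pass the test, and "higher" and "lower" refer to the means. The genes of lowest p in each direction were taken only from those without overlap of arrays and with this fold change. For these genes, among them Mt1, Lcn2, Fos, Ccn2, Slc40a1, Hspa5, Dnajb11, Manf, Cela2a and Aox3, the lack of overlap was a condition of the choice. It is not a separate finding. Of 8215 genes taken by their brightest probe, 444 (5.40%) passed the unadjusted rule, 269 higher (3.27%) and 175 lower (2.13%), and the median difference over these genes was 0.01. Of the 8215 genes 51.5% had a higher mean in Acads-/- liver. Shares over all genes or probes given beside the lists are of the fit with all arrays, also where single arrays were left out.

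The liver arrays differed from each other more than the brain arrays, with a median residual SD of 0.524 in liver and 0.271 in brain (log2). The same genotype comparison in brain called 5758 of 16506 probes at the adjusted p (34.9%). The first Acads-/- HF liver array stood apart on the first 2 principal components and correlated with its own group at 0.911 to 0.934. Hepatocyte markers were bright on every HF array (the mean over 7 tested markers was 17.87 to 18.43 in Acads-/- and 17.34 to 18.18 in Acads+/+ liver). The array numbers of the HF groups do not interleave, all of Acads-/- being lower than all of Acads+/+, and what the number records is in no label, so anything that goes with it cannot be told apart from genotype. Of the 12 numbers of the liver columns, 11 also occur in the brain columns. Brain and liver values may therefore be of the same mice, and brain values are not independent of those in liver.

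The Acads probe read 8.19, 7.54 and 10.03 in Acads-/- and 9.75, 9.67 and 11.39 in Acads+/+ HF livers. The highest Acads-/- array lay above the lower 2 Acads+/+ arrays, so the groups overlapped. The difference was -1.68 (SE 0.78, adjusted p = 0.743), or 0.311 of the Acads+/+ level. On LF diet it was -1.28 (SE 0.78, adjusted p = 1.00), and in brain on HF diet it was -2.39 (adjusted p = 0.0025). Where the probe lies relative to the deletion is not given in the sources used here, so its level is only a partial check of the genotype labels.

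**Figure D1:**
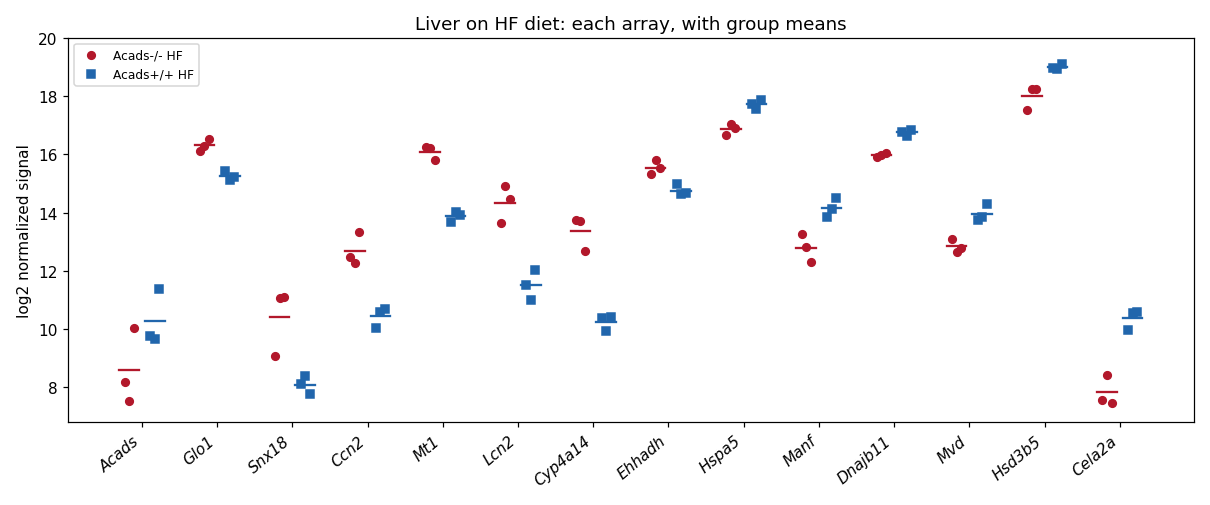
Log2 normalized signal of 14 genes (x axis) on each of the 6 HF liver arrays (y axis), Acads-/- as circles and Acads+/+ as squares, with a bar at each group mean. Acads overlaps between the genotypes, from 7.54 to 10.03 in Acads-/- and from 9.67 to 11.39 in Acads+/+ liver, while the 3 arrays of each genotype are apart for the other 13 genes. These 13 were chosen with their values known.

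Snx18, Glo1 and Clcn4, picked because they were higher in Acads-/- brain, had higher means in Acads-/- HF liver too. Glo1, which encodes glyoxalase 1, the enzyme that clears methylglyoxal, read 16.11, 16.27 and 16.54 in Acads-/- and 15.43, 15.12 and 15.23 in Acads+/+ HF livers. All 3 Acads-/- arrays were above all 3 Acads+/+ arrays, and the mean was 2.07-fold higher (log2 difference 1.05, SE 0.22, adjusted p = 0.421). On LF diet, whose arrays are other mice, the Glo1 difference was 1.34 (SE 0.22, adjusted p = 0.441), again with no overlap, and in brain on HF diet it was 1.40. Snx18, a sorting nexin of membrane trafficking, read 9.07, 11.05 and 11.10 in Acads-/- and 8.10, 8.37 and 7.76 in Acads+/+ HF livers. The first Acads-/- array was the low one, and without it the difference of 2.33 (SE 0.52, adjusted p = 0.421) was 2.997. On LF diet the Snx18 difference was 3.72 (SE 0.52, adjusted p = 0.224), and in brain on HF diet 5.42. Clcn4, a chloride/proton exchanger, was 0.95 higher in Acads-/- HF liver (SE 0.50, adjusted p = 0.795) and 3.37 higher in brain. Its liver probe passed the signal filter only through the Acads-/- HF arrays. The 3 genes were picked from earlier results of the brain arrays, which may be of the same mice.

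The largest difference among genes of fatty acid oxidation was in Cyp4a14, a fatty acid omega-hydroxylase and a classical PPAR-alpha target in mouse liver. It read 13.75, 13.70 and 12.68 in Acads-/- and 10.39, 9.93 and 10.42 in Acads+/+ HF livers. The lowest Acads-/- array was above the highest Acads+/+ array, and the mean was 8.78-fold higher (log2 difference 3.13, SE 0.80, adjusted p = 0.438). Ehhadh, the bifunctional enzyme of peroxisomal beta-oxidation, read 15.31, 15.81 and 15.52 in Acads-/- and 14.98, 14.62 and 14.66 in Acads+/+ HF livers. Its groups did not overlap either, with a difference of 0.79 (SE 0.21, adjusted p = 0.440). On LF diet Cyp4a14 was 2.14 (SE 0.80) and Ehhadh 0.59 (SE 0.21) higher in Acads-/- liver. The LF arrays of Cyp4a14 overlapped, with 12.50, 9.64 and 10.46 in Acads-/- and 8.32, 7.53 and 10.35 in Acads+/+ livers. A probe that the annotation gives to several genes was not named.

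Of 19 tested genes of peroxisomal and omega oxidation, 3 were higher and 0 lower at the unadjusted rule, against 3.27% and 2.13% of all genes. The third was Pex19, a chaperone for peroxisomal membrane proteins (difference 0.68, SE 0.21). The arrays did not overlap for 7 of the 19, all higher in Acads-/- liver, against 6.04% of all probes. Decr2, the peroxisomal dienoyl-CoA reductase, was 0.60 higher (SE 0.22), and the thiolases Acaa1a and Acaa1b were 0.38 (SE 0.21) and 0.35 (SE 0.22) higher. The most abundant members were near equal, with 19.58 in Acads-/- and 19.87 in Acads+/+ liver for Scp2, the sterol carrier, and 18.87 and 19.07 for Phyh, the enzyme of phytanic acid oxidation. The median over the list was 0.12, and it was 0.03 without the first Acads-/- array, 0.06 without the first and 0.20 without the third Acads+/+ array, and 0.19 without the third Acads-/- array.

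Of 24 other PPAR-alpha targets and regulators, 2 were higher and 1 lower at the unadjusted rule, against 3.27% and 2.13% of all genes. The median over the 24 was 0.27. Vnn3, a pantetheinase, read 12.50, 12.33 and 12.36 in Acads-/- and 11.08, 10.47 and 12.34 in Acads+/+ HF livers. One Acads+/+ array reached the Acads-/- level, and the difference was 1.10 (SE 0.40, adjusted p = 0.657). Mogat1, an acyltransferase of triglyceride synthesis, was 1.11 higher (SE 0.48), and on LF diet the differences of Vnn3 and Mogat1 were 0.91 and 1.40. Pdk4, the kinase that turns off pyruvate dehydrogenase, went the other way. It read 10.45, 11.43 and 11.25 in Acads-/- and 11.86, 12.24 and 11.91 in Acads+/+ HF livers, with no overlap and a difference of -0.96 (SE 0.40, adjusted p = 0.721). On LF diet Pdk4 was 0.38 higher in Acads-/- liver (SE 0.40). Fgf21, the fasting hormone of liver, was 0.72 lower on HF diet (SE 0.48) and 1.17 higher on LF diet (SE 0.48). Leaving out single arrays changed the number of these genes past the unadjusted rule, which was 0 without the first Acads-/- array or without the first or second Acads+/+ array and 4 without the second Acads-/- array. The median was 0.11 without the second Acads-/- and 0.18 without the second Acads+/+ array.

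In mitochondrial fat oxidation itself the genotypes were close. None of the 13 tested genes of beta-oxidation of longer chains passed the unadjusted rule, and the median was 0.09. Without the second Acads+/+ array the median was 0.01, and without the second Acads-/- array 1 gene passed. Acadvl, the very-long-chain dehydrogenase, averaged 19.01 in Acads-/- and 18.90 in Acads+/+ HF liver (difference 0.11, SE 0.17), and Decr1, the mitochondrial dienoyl-CoA reductase, differed by 0.23 (SE 0.21). Of 10 genes of the carnitine shuttle, 9 were higher and 0 passed, with a median of 0.16. Without the second Acads+/+ array 5 were higher and 5 lower (median 0.02), without the third Acads-/- array the median was 0.04, without the third Acads+/+ array it was 0.25, and 2 passed without the first Acads-/- array and 1 without the third Acads+/+ array. Crat, carnitine acetyltransferase, which moves short acyl groups between CoA and carnitine, read 15.07, 15.40 and 15.61 in Acads-/- and 14.61, 14.65 and 14.86 in Acads+/+ HF livers. The arrays were apart, and the difference of 0.65 (SE 0.23, adjusted p = 0.657) lay just below the fold-change limit of 0.68 on the log2 scale. The probe for Cpt1a, the entry enzyme of the shuttle, was close to the floor at 8.94 in Acads-/- and 8.08 in Acads+/+ liver.

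Of 20 genes of short-chain acyl-CoA handling besides, 0 were higher and 1 lower at the unadjusted rule, against 3.27% and 2.13% of all genes. The median was 0.03. Leaving out single arrays gave 0 to 2 higher (2 without the third Acads+/+ array), 1 to 3 lower (3 without the third Acads-/- array) and medians of -0.03 to 0.09. With all arrays the lower one was Keg1, a member of the glycine N-acyltransferase family, which conjugates acyl-CoAs with glycine. It read 13.94, 13.68 and 13.93 in Acads-/- and 14.69, 14.52 and 14.94 in Acads+/+ HF livers, with no overlap and a difference of -0.87 (SE 0.25, adjusted p = 0.496). Its relative Glyat, the abundant hepatic enzyme, differed by -0.20 (SE 0.28). Of 56 tested subunits of oxidative phosphorylation 0 passed, with a median of 0.02. None passed among 13 genes of the tricarboxylic acid cycle, 3 of ketone bodies, 22 of bile acids and 8 of AMPK, its kinases and targets.

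Among genes of fatty acid synthesis, Acsl3, an acyl-CoA synthetase of ER and lipid droplets, read 11.02, 11.82 and 12.14 in Acads-/- and 12.78, 12.78 and 12.69 in Acads+/+ HF livers. All Acads-/- arrays were lower, with a difference of -1.09 (SE 0.28, adjusted p = 0.438) that was -0.77 without the first Acads-/- array. Elovl3, a fatty acid elongase, was lower by a log2 difference of -0.98 (SE 0.41). Of the 22 genes of this list 0 were higher and 2 lower at the unadjusted rule, against 3.27% and 2.13% of all genes. Only 1 of the 22 was lower at that rule without the first Acads-/- array or without any one of the Acads+/+ arrays. Elovl6, the elongase of palmitate, had a spread of 11.45 to 14.40 in Acads-/- against 13.97 to 14.67 in Acads+/+ HF livers, and its difference of -1.42 had an SE of 0.70.

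**Figure D2:**
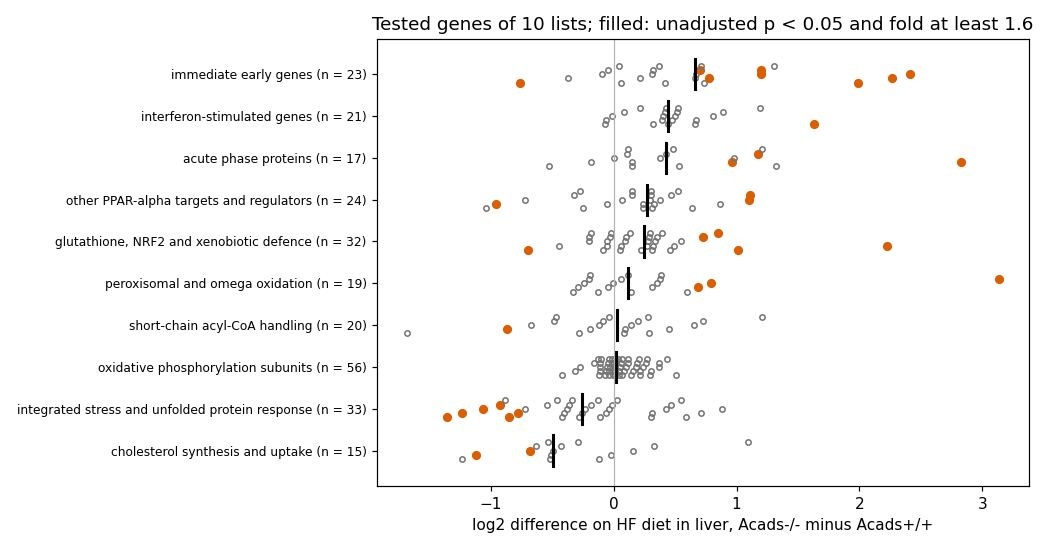
Log2 difference on HF diet in liver, Acads-/- minus Acads+/+ (x axis), for each tested gene of 10 lists (y axis). Filled points passed the unadjusted rule, open points did not, and the black bar is the list median, which runs from 0.66 for immediate early genes to -0.50 for cholesterol synthesis and uptake.

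Several ER chaperones were lower in Acads-/- HF liver. Of 33 tested genes of the integrated stress and unfolded protein response, 6 were lower and 0 higher at the unadjusted rule (18.2% lower, against 2.13% of all genes), 24 of 33 had a lower mean, and the list median was -0.25. Hspa5, which encodes BiP, the main ER chaperone, read 16.65, 17.05 and 16.89 in Acads-/- and 17.73, 17.56 and 17.85 in Acads+/+ HF livers. Every Acads-/- array was below every Acads+/+ array, and the mean was 0.555 of the Acads+/+ level (log2 difference -0.85, SE 0.21, adjusted p = 0.421). Dnajb11, the J-domain co-chaperone of BiP, read 15.90, 15.98 and 16.04 in Acads-/- and 16.78, 16.64 and 16.84 in Acads+/+ HF livers. Its groups were narrow and apart, with a difference of -0.78 (SE 0.18, adjusted p = 0.421). Manf, a secreted ER stress protein, read 13.27, 12.83 and 12.29 in Acads-/- and 13.83, 14.12 and 14.50 in Acads+/+ HF livers, again with no overlap. Its mean was 0.390 of the Acads+/+ level (log2 difference -1.36, SE 0.31, adjusted p = 0.421).

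Creld2, an ER disulfide isomerase, and Sdf2l1, a component of the ER chaperone complex, were lower by log2 differences of -1.06 (SE 0.37) and -0.92 (SE 0.32), without overlap of arrays. Calr, calreticulin, and Pdia4, a protein disulfide isomerase, also did not overlap, and their differences of -0.55 (SE 0.20) and -0.46 (SE 0.18) were below the fold-change limit. Hsp90b1, the ER member of the HSP90 family, was measured close to the floor, with 7.89, 7.53 and 8.29 in Acads-/- and 9.58, 7.98 and 9.87 in Acads+/+ HF livers. One Acads+/+ array overlapped, and the difference was -1.24 (SE 0.55, adjusted p = 0.729). The transcription factors Atf4, Ddit3 and Xbp1, which carry the response to the nucleus, were closer to equal. Atf4 averaged 15.90 in Acads-/- and 15.91 in Acads+/+ liver, Ddit3 differed by -0.24 (SE 0.30) and Xbp1 by -0.28 (SE 0.24). The median over the whole list was -0.21 on LF diet, near its -0.25 on HF diet. On LF diet the differences of Hspa5, Dnajb11 and Manf were -0.21 (SE 0.21), -0.29 (SE 0.18) and -0.24 (SE 0.31), and that of Sdf2l1 was -1.07 (SE 0.32). The interaction of genotype and diet did not pass for any of these (lowest adjusted p = 0.890). The number of list genes lower at the unadjusted rule was 4 to 7 when single arrays were left out, and 5 without the first Acads-/- array. The list median was -0.15 without the third Acads+/+ array, -0.17 with median scaling and -0.08 with array weights.

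Some markers of pancreatic acinar cells, which are rich in ER, had lower means in the same livers. Of 11 acinar markers listed, 8 had a probe and 4 were tested, of which Cela2a, Prss2 and Cela3b were lower at the unadjusted rule. Over all genes 2.13% were lower at this rule. Prss1 differed by 0.40 (SE 0.72). The mean of the 4 was 8.996 to 9.44 in Acads-/- and 10.07 to 11.11 in Acads+/+ HF livers. Cela2a, an elastase, read 7.57, 8.42 and 7.47 in Acads-/- and 9.97, 10.54 and 10.58 in Acads+/+ HF livers (difference -2.54, SE 0.59). Its Acads-/- values were close to the floor of 7.15. Cela2a passed the signal filter only through its high Acads+/+ HF arrays, so the count and the mean of the 4 rest partly on a marker selected that way. The other 4 markers, Cpa1, Ctrb1, Clps and Amy2a5, were below the signal filter and overlapped between the groups. In the third Acads+/+ array Cela3b and Prss2 were at their lowest of that group, 7.38 and 8.92, and Cela2a was at its highest, as were Hspa5, Manf, Creld2 and Sdf2l1. The part of acinar RNA in the chaperone values was not tested.

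Promoters of ER chaperone genes are known for the ER stress response element, a CCAAT box and a CCACG box held 9 bases apart. CCAAT and CCACG with 9 bases of any kind between them, searched on both strands in the 250 bases before the RefSeq start, were found in 37 of 32851 windows (0.113%) and in 8 of the 30 list genes with a window. The first count is of windows and the second of genes, which can have several windows. The list was drawn up from genes of this response, so its share of matches says nothing about these livers. Overlap with other motifs was not examined in these 8 genes. The 4 of these with unadjusted p below 0.05 in liver were Hspa5, Calr, Creld2 and Hsp90b1, whose windows (RefSeq, GRCm38.p6, 5′ to 3′ in the gene's direction) are shown because they are the members that held the element and had the lowest p among its holders. Capitals mark the match, which starts with CGTGG and ends with ATTGG where it lies on the other strand.
Hspa5 (chr2:34771840-34772089, plus strand): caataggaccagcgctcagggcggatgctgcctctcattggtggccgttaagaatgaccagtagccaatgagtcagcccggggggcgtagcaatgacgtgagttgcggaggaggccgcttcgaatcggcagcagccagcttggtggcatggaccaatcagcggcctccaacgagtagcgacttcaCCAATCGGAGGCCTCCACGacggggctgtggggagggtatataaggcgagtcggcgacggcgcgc
Calr (chr8:84846932-84847181, minus strand): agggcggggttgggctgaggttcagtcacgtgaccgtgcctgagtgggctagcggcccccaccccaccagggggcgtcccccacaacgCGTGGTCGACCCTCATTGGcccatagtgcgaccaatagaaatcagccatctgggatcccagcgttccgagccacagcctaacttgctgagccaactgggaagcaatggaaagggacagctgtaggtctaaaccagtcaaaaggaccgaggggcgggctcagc
Creld2 (chr15:88819396-88819645, plus strand): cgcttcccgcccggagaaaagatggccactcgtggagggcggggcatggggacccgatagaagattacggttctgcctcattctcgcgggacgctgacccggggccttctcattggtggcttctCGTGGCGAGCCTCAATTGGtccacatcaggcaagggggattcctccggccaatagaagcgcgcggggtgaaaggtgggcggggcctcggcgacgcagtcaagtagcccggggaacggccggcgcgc
Hsp90b1 (chr10:86705445-86705694, minus strand): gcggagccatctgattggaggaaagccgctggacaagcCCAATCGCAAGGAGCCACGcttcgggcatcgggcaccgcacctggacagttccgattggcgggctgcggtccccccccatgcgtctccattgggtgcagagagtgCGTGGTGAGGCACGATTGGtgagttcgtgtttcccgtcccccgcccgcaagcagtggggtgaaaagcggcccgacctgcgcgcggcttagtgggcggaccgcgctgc
The match began 65 bases before the start in Hspa5, 162 in Calr and 126 in Creld2, and Hsp90b1 held 2 matches. Canx, Dnajc3, Syvn1 and Derl3 also held a match, and their differences were -0.11 (SE 0.19), -0.37 (SE 0.22), -0.40 (SE 0.59) and 0.88 (SE 0.51) in that order, of which none had an unadjusted p below 0.05. Dnajb11 and Manf, with the lowest p in the list, held no exact match in this window.

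Genes of cholesterol synthesis were lower as well. Of 15 tested, 12 were lower and 2 passed the unadjusted rule, both lower, against 2.13% of all genes. The list median was -0.50, the lowest of the gene lists examined. Mvd, the decarboxylase of the mevalonate pathway, read 13.09, 12.64 and 12.79 in Acads-/- and 13.74, 13.84 and 14.30 in Acads+/+ HF livers. The arrays were apart, and the mean was 0.461 of the Acads+/+ level (log2 difference -1.12, SE 0.32, adjusted p = 0.481). Insig1, the sterol-sensing brake on SREBP, read 16.45, 16.18 and 16.54 in Acads-/- and 17.33, 16.93 and 16.96 in Acads+/+ HF livers, with no overlap and a difference of -0.68 (SE 0.26, adjusted p = 0.664). Fdft1, squalene synthase, was lower by a log2 difference of -0.51 (SE 0.23). Hmgcs1, the most abundant member, ranged from 16.62 to 18.51 in Acads-/- and from 17.78 to 18.45 in Acads+/+ liver, and Sqle rested on 1 low Acads+/+ array at 10.62. In 7 of the 15 all Acads-/- arrays were below all Acads+/+ arrays, against 5.07% of all probes, and in 1, Scap, the escort of SREBP, they were all above. Without the first Acads-/- array, in which Idi1, Hmgcs1 and Sc5d had their lowest values, the list median was -0.23 while 3 genes passed the unadjusted rule. On LF diet the median was -0.17.

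**Figure D3:**
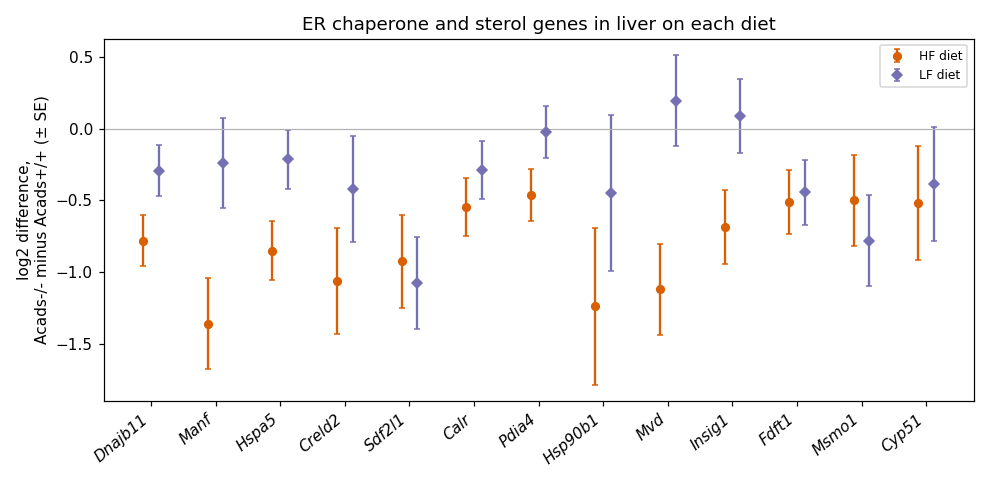
Log2 difference in liver, Acads-/- minus Acads+/+, with its SE (y axis), for 8 ER chaperone and 5 sterol genes (x axis) on HF diet (circles) and LF diet (diamonds). The 13 genes were chosen with their values known, and all their differences on HF diet are below 0, from -1.36 for Manf to -0.46 for Pdia4. In the full lists 9 of 33 stress genes and 3 of 15 sterol genes are above 0 on HF diet. The differences of Mvd and Insig1 on LF diet are 0.19 and 0.09.

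Metallothionein and acute phase genes were among the highest differences. Mt1, metallothionein, which binds zinc and copper and is induced by glucocorticoids and metals, read 16.26, 16.22 and 15.79 in Acads-/- and 13.66, 14.02 and 13.92 in Acads+/+ HF livers. The 2 groups did not overlap, as the choice of genes of lowest p required. The mean was 4.68-fold higher (log2 difference 2.23, SE 0.50, adjusted p = 0.421). On LF diet Mt1 read 13.97, 13.62 and 14.60 in Acads-/- and 14.07, 14.18 and 16.18 in Acads+/+ livers, a difference of -0.74 (SE 0.50). Lcn2, lipocalin 2, a siderophore-binding acute phase protein, read 13.64, 14.93 and 14.46 in Acads-/- and 11.50, 11.01 and 12.04 in Acads+/+ HF livers. There was no overlap, and the mean was 7.07-fold higher (log2 difference 2.82, SE 0.66, adjusted p = 0.421). On LF diet the Lcn2 arrays overlapped, with a difference of 0.73 (SE 0.66).

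The median over 17 acute phase genes tested was 0.42. Of these 15 were higher and 3 passed the unadjusted rule, all higher, against 3.27% of all genes. Besides Lcn2 these were Socs3, the feedback inhibitor of cytokine signalling, with a difference of 0.97 (SE 0.33), and Orm2, an orosomucoid, with 1.18 (SE 0.46), both without overlap. Saa2 and Saa3, serum amyloid A genes, were 1.32 (SE 0.70) and 1.21 (SE 0.58) higher with overlapping arrays. The most abundant members were near equal, with hepcidin (Hamp) at 20.24 in Acads-/- and 20.23 in Acads+/+ liver and haptoglobin (Hp) at 20.08 and 19.93. The number past the unadjusted rule was 1 without the first Acads+/+ array and 6 without the first Acads-/- array. On LF diet the median was -0.19. Of 21 interferon-stimulated genes 18 were higher, with a median of 0.44. Only 1 passed the unadjusted rule (4.76%, against 3.27% of all genes higher). It was Psmb8, an immunoproteasome subunit, at 12.90, 13.33 and 13.40 in Acads-/- and 11.32, 11.40 and 12.03 in Acads+/+ HF livers (difference 1.63, SE 0.47, adjusted p = 0.481). The number past the rule was 3 without the first Acads-/- array and 2 without the third Acads-/- or the first Acads+/+ array.

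Markers of macrophages were higher in the same livers. Of 9 tested Kupffer cell and macrophage markers 8 were higher, with a median of 0.51, and their mean level was 13.67 to 14.22 in Acads-/- and 13.31 to 13.75 in Acads+/+ HF livers. Cd5l, a protein secreted by macrophages, was 1.09 higher (SE 0.43), Clec4f, the lectin particular to mouse Kupffer cells, 0.56 higher (SE 0.31), and Marco, a scavenger receptor, 0.68 lower (SE 0.64). Without the first Acads-/- array 3 of the 9 passed the unadjusted rule, against 1 (Cd5l) with all arrays and 0 without the second or the third Acads-/- array or without the first or the second Acads+/+ array. Of 4 B and plasma cell markers 1 was higher at the unadjusted rule (median 0.10), and of 5 neutrophil markers 0 were (median 0.11). Of 8 liver endothelium markers 2 were (median 0.02). Both of the 2 tested T and NK cell markers had higher means (median 0.70), and 0 passed. Over all genes 3.27% were higher at this rule. Higher markers were thus not particular to macrophages. Clec4n, the dectin-2 receptor, was 1.68 higher (SE 0.31) and Blnk, the B-cell linker, 2.36 higher (SE 0.43), both among the 15 of lowest p. More cells of a type and more RNA per cell cannot be told apart in whole liver, and the part of macrophages in the acute phase and interferon values was not tested.

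In drug and stress defence, 4 of 32 genes of glutathione, NRF2 and xenobiotic defence were higher and 1 lower at the unadjusted rule. Over all genes 3.27% were higher and 2.13% lower. The list median was 0.25, and it was 0.04 without the first Acads-/- array. Without the first or the second Acads+/+ array 2 were higher, and without the second Acads-/- array 0 were lower. Besides Mt1, these were the glutathione transferases Gstt2 (1.01, SE 0.29) and Gstt3 (0.84, SE 0.34) and heme oxygenase, Hmox1 (0.73, SE 0.28), all without overlap. Gstm6, a glutathione transferase of the mu class, was lower by a log2 difference of -0.70 (SE 0.19). The most abundant, Gsta3, averaged 19.57 in Acads-/- and 19.59 in Acads+/+ liver. Slc40a1, ferroportin, the iron exporter, was 0.84 higher (SE 0.20, adjusted p = 0.421), with 13.49, 13.35 and 13.28 in Acads-/- and 12.32, 12.54 and 12.74 in Acads+/+ HF livers.

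Genes that differ between male and female liver went both ways in these males. Of 17 tested, 3 were higher and 2 lower at the unadjusted rule, against 3.27% and 2.13% of all genes. There was 1 higher and 1 lower without the first or the second Acads+/+ array, 1 higher and 2 lower without the second Acads-/- array, and 1 lower without the first Acads-/- or the third Acads+/+ array. The 3 higher were cytochrome P450 genes known to be higher in female mouse liver. Cyp3a16 read 15.04, 15.70 and 15.35 in Acads-/- and 14.47, 14.35 and 14.31 in Acads+/+ HF livers, with no overlap and a difference of 0.99 (SE 0.30, adjusted p = 0.550). Cyp3a44 was 0.80 higher (SE 0.32), and Cyp2b9 was 1.52 higher (SE 0.59) with overlap of 1 array. On LF diet the differences of Cyp3a16, Cyp3a44 and Cyp2b9 were 1.24 (SE 0.30), 0.84 (SE 0.32) and 2.48 (SE 0.59). The 2 lower, Hsd3b5, a steroid dehydrogenase, and Elovl3, are known to be higher in male mouse liver. Hsd3b5 read 17.53, 18.26 and 18.25 in Acads-/- and 18.98, 18.92 and 19.09 in Acads+/+ HF livers, so that the mean was 0.505 of the Acads+/+ level (log2 difference -0.98, SE 0.25, adjusted p = 0.438). Other male-biased members, Cyp2d9 and Selenbp2, differed by 0.07 (SE 0.17) and -0.12 (SE 0.26). Hsd3b4, a close relative of Hsd3b5, was lower by a log2 difference of -1.33 (SE 0.27). Probes of such near-identical family members may bind each other's RNA, and their values are uncertain to that extent.

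Immediate early genes, a list drawn up after their values were seen, included some of the largest differences. Of 23 tested, 7 were higher and 1 lower at the unadjusted rule, against 3.27% and 2.13% of all genes. Fos read 9.95, 10.48 and 10.11 in Acads-/- and 7.67, 7.63 and 8.01 in Acads+/+ HF livers, and on LF diet 8.40, 9.87 and 8.11 in Acads-/- and 11.23, 9.42 and 11.14 in Acads+/+ livers. The groups were apart on HF diet, with Acads-/- higher by 2.41 (SE 0.54, adjusted p = 0.421), and on LF diet Acads-/- was lower by a log2 difference of -1.80 (SE 0.54, adjusted p = 1.00). The interaction for Fos was 4.21 (SE 0.76, adjusted p = 0.782). Ccn2, connective tissue growth factor, read 12.49, 12.26 and 13.33 in Acads-/- and 10.04, 10.58 and 10.68 in Acads+/+ HF livers. It was 4.80-fold higher (log2 difference 2.26, SE 0.39, adjusted p = 0.348), with a difference of 0.06 (SE 0.39) on LF diet. Myc and Jun were higher by 1.99 (SE 0.48) and 1.20 (SE 0.40) without overlap, and Egr1 by 0.37 (SE 0.46) with overlap. Ccn1, a relative of Ccn2, was lower by a log2 difference of -0.76 (SE 0.27). The abundant members Ier2, Dusp1 and Sgk1 differed by 0.22 (SE 0.20), 0.41 (SE 0.39) and 0.31 (SE 0.23).

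Other genes among the 15 of lowest p in each direction were in none of the lists. Higher in Acads-/- HF liver were Rps6kl1, a gene related to ribosomal S6 kinases (1.82, SE 0.26), Serinc2, of the serine incorporator family (1.35, SE 0.22), Rin3, an exchange factor for small GTPases (2.30, SE 0.43), and Loxl1, a lysyl oxidase of elastic fibres (1.21, SE 0.26). Loxl1 was also 1.08 higher on LF diet (SE 0.26). AI413582 and B430306N03Rik, of no role known here, were 1.05 (SE 0.23) and 1.86 (SE 0.44) higher. Lower were Ntrk2, the BDNF receptor (-2.70, SE 0.59), Aox3, an aldehyde oxidase of liver (-1.44, SE 0.31), Gna14, a G protein subunit (-1.44, SE 0.33), Wasl, which drives actin branching (-1.60, SE 0.39), and Ykt6, a SNARE of the secretory pathway (-0.85, SE 0.21). Aox3 read 14.59, 15.41 and 15.61 in Acads-/- and 16.96, 16.68 and 16.29 in Acads+/+ HF livers, with no overlap. The others were Cuedc1 (-1.98, SE 0.40), the retinoid transporter Abca4 (-1.45, SE 0.31), the olfactory receptor Olfr957 (-2.02, SE 0.47), Adam25 (-1.22, SE 0.29) and the asparaginyl-tRNA synthetase Nars (-0.96, SE 0.23). Cuedc1 and Olfr957 passed the signal filter only through their high Acads+/+ HF arrays. Wasl was also lower on LF diet (-1.06, SE 0.39) and in brain (-1.41). Several of the 15 genes of lowest p in each direction were called in brain on HF diet, where 34.9% of probes were. Besides Snx18, Glo1 and Wasl, the sign in brain was the same for Mt1 (1.32), AI413582 (1.57), Hspa5 (-0.83), Ntrk2 (-1.21) and Nars (-0.95). It was opposite for Ccn2 (-0.71), Slc40a1 (-1.58) and Manf (0.83).

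The same comparison on LF diet gave 0 calls of 16506 probes (0.00%) at the adjusted p and 543 (3.29%) at the unadjusted rule, 258 higher (1.56%) and 285 lower (1.73%). The arrays did not overlap on LF diet at 9.37% of probes, 5.10% higher and 4.27% lower in Acads-/- liver. The HF and LF comparisons share no array. They do share the same estimate of each probe's spread, so passing on HF and on LF diet is not independent. At the unadjusted rule 76 probes were found on both diets, which is 8.12% of the HF and 14.0% of the LF probes. Of these 26 were higher and 20 lower on both diets, and 30 went in opposite directions. Among the genes described here, those higher on both were Snx18, Glo1, Loxl1, Cyp4a14, Cyp2b9, Cyp3a16, Cyp3a44, Mogat1 and Vnn3, and Sdf2l1 and Wasl were lower on both. The interaction of genotype and diet gave 0 calls (0.00%), with a lowest adjusted p of 0.782 (limma), and 848 probes (5.14%) at the unadjusted rule, 486 above 0 (2.94%) and 362 below 0 (2.19%).

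**Figure D4:**
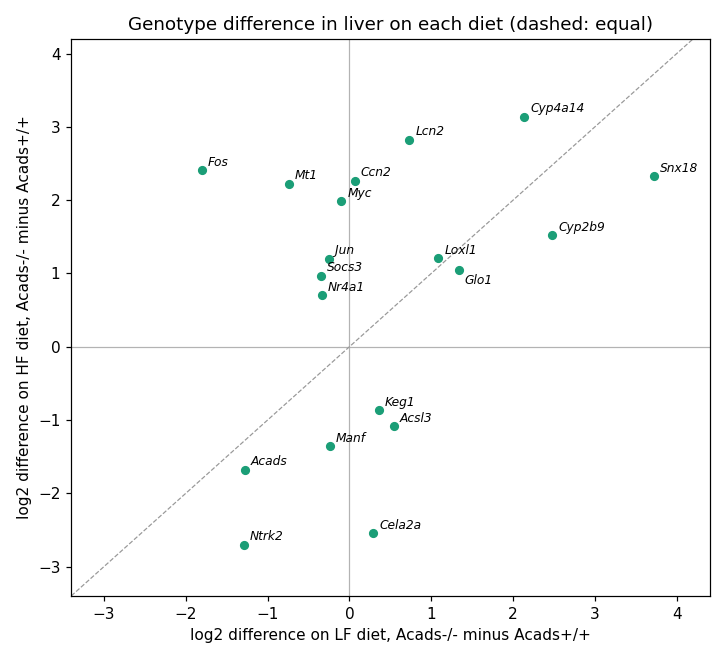
Log2 difference of 19 named genes between Acads-/- and Acads+/+ liver on LF diet (x axis) and on HF diet (y axis), with a dashed line where both are equal. Cyp4a14, Snx18, Cyp2b9, Glo1 and Loxl1 are above 0 on both diets, while Fos is at -1.80 on LF and 2.41 on HF diet.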

How the data were processed

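Liver RNA of 12 mice was hybridised to Applied Biosystems Mouse Genome Survey arrays with 1 sample and 33012 probes per array. The signal intensities, as deposited by the authors, were extracted with the analyzer software and not normalized. The log2 values of the authors' value table are quantile-normalized within tissue, and equal the log2 computed here, before the floor, within 5e-09. Detection values were not used here.

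Intensities were quantile-normalized over the 12 liver arrays, a floor was set at the 5th percentile (142), and the values were put on the log2 scale. The 16506 probes with mean signal above the median (416) were fitted with limma 3.58.1 in R 4.3.3 as 4 groups of 3 arrays. Calls needed a Benjamini-Hochberg adjusted p below 0.05 and a 1.6-fold difference or more. The unadjusted rule used the same fold with unadjusted p. A permutation of 3 against 3 arrays cannot go below p = 0.10. The brain arrays were fitted apart. The number of arrays limits the precision. The fit was tested on simulated data.

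Of the probes, 14411 had 1 gene symbol, 247 several and 18354 none in the platform annotation, and symbols were updated through Entrez IDs. A gene was given by its brightest probe. For each direction, the 15 probes of lowest p with 1 symbol, fold of at least 1.6 and no overlap were taken, and per list up to 6 genes by p or signal. Genes named beyond that were chosen after their values were seen. The members and lists were chosen with earlier results of these data known.

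The LF labels conflict: 1 field of the 6 LF liver samples gives a high-fat diet, while title and treatment give low-fat, which was used. Alternatives covered scaling, low signals, filters, the authors' values, array weights, the variance prior, the arrays fitted, the methods' t-test and leaving out single arrays, and, added after seeing the data, the mean of all probes of a gene and the list of immediate early genes. The replicate numbers of the titles did not pair the samples: the correlation of deviations between same-numbered arrays was -0.17, 0.18 and -0.04. Samples that differ only by array are treated as replicates, and p-values measure the spread between them.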

Additional observations from a re-analysis of the deposited data

Results flagged for a closer look

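Acsl3 had its Acads-/- arrays all below the Acads+/+ arrays on HF diet (log2 difference -1.09) and all above them on LF diet (0.54), so the genotype difference had opposite signs on the 2 diets. The interaction was -1.63 (SE 0.40, limma adjusted p = 0.868), which did not pass. Groups of 3 arrays are too small to test for single outlying arrays.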

How the results depend on the processing

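Leaving out single arrays gave 0 to 2 calls on HF diet, 0 to 0 on LF diet and 0 to 1 for the interaction. The calls on HF diet were 1 unnamed probe without the first Acads-/- array (difference 4.38, limma adjusted p = 0.00275, against 2.77 with all arrays) and, without the second Acads-/- array, Rap2b (2.53, adjusted p = 0.0379, against 1.83) and 1 unnamed probe. The first of these unnamed probes was the 1 call of the interaction (4.86, adjusted p = 0.0145). Among other settings that kept the adjusted p, calls on HF diet and of the interaction stayed at 0, while on LF diet the replicate block gave 1 call, an unnamed probe, and an intensity trend with a robust prior gave 2, that probe and Glo1 (1.34, adjusted p = 0.0223). With the replicate number as a block HF diet gave 0 calls. Unadjusted limma p gave 936, 543 and 848 probes for HF diet, LF diet and the interaction. The methods' t-test gave 496 on HF and 347 on LF diet unadjusted, and 0 after Benjamini-Hochberg, and it and a fit of only the 2 groups were not run for the interaction. At the unadjusted rule the counts on HF diet were 317 with the top 25% of probes, 1417 with array weights and 1837 with no signal filter, and those without filter were 1244 on LF diet and 1576 for the interaction. Median scaling moved the median of all probes to 0.06 on HF and -0.15 on LF diet, and the share of higher probes at the unadjusted rule to 68.6% on HF diet (57.8% with quantile normalization) and to 27.2% on LF diet (47.5%). None of the genes picked by lowest p, nor Acads or Clcn4, changed direction on HF diet under the settings tried. Acads ranged between -2.41 and -0.75. Some other genes described here did change direction. Hamp and Gsta3 each kept their sign in 12 of 15 settings, and Glyat in 14 of 15. List medians moved by more than the spread between arrays in 21 combinations of list and setting, and the acinar median was -0.72 with no signal filter and 0.40 with the top 25% of probes, where Prss1 alone was left. With 3 arrays a group, small differences are not detectable, and 0 calls does not show that the genotypes were alike.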
